A study of Homo sapiens with 24 samples.

Results

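The 5′ UTR is the part of an mRNA between its first base and its start codon. The small ribosomal subunit is loaded at its capped end and scans along it, and upstream reading frames, structured elements and the bases at the very start of the mRNA are known to set how well the message is translated. Terminal oligopyrimidine (TOP) mRNAs, which encode the ribosomal proteins and other parts of the translation machinery, begin with a C followed by a run of C and T. Many genes also have 5′ UTRs that are split over several exons, so that part of a 5′ UTR in 1 transcript can be an intron in another.

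Binding of 3 RNA-binding proteins was mapped by eCLIP in HEK293, an established human embryonic kidney line. eCLIP crosslinks a protein to its RNA, immunoprecipitates it (IP) and sequences the bound fragments, and an input library serves as background. The experiments were SNRNP200 from the cytoplasm with 500 µM arsenic, SNRNP200 from the cytoplasm untreated, SNRNP200 from whole cells with 500 µM arsenic, SNRNP200 from whole cells untreated, CAPRIN untreated and G3BP1 untreated, each with 2 input and 2 IP libraries. SNRNP200 is the spliceosomal helicase that unwinds the paired U4 and U6 snRNAs, and G3BP1 nucleates stress granules together with its partner CAPRIN1. The label gives CAPRIN without its family member, no length of arsenic treatment was found in the labels, and nothing says whether the 2 replicates were separate cultures, so p-values measure only the spread between these samples.

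For each experiment there was 1 deposited list of windows, none of them over 100 bases in a 5′ UTR, that the authors found enriched in their replicates. All entries whose leading feature type is the 5′ UTR were taken from the 6 lists, and an entry was counted as the same window where chromosome, start, end and strand were equal. This gave 5644 windows of 225825 in all. Of these, 3640 (64.5%) were in 1 list only, 1830 in 2 lists, 139 in 3, 31 in 4, 4 in 5 and none in all 6. Windows in a 5′ UTR were found in 3064 of the 9792 genes with any window.

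Some features of the lists come before the results. The input counts of the cytoplasmic arsenic list and of the whole cell arsenic list were equal in 769 of 882 shared windows (87.2%) and in 92 of 100 shared 5′ UTR windows, with a largest difference of 9 reads. Their input counts differed by less than sampling noise (chi-square per degree of freedom 0.0095, against 1.52 to 13.1 for the input counts of the other pairs of lists), so the arsenic inputs count as 1 set of samples, and the cytoplasmic arsenic enrichment was in effect set against counts that match the whole cell input. The IP counts of these lists were equal in 0.794% of shared windows. The G3BP1 list held 2 sets of entries: 1254 windows summarised over up to 2 replicates, which match the 2 labelled replicates and are called G3BP1 here, and a second set of 1988 windows with up to 3 replicates, whose G3BP1 values are given apart. The 12 5′ UTR windows found in both sets had different counts.

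The transcript starts below are those the results turn on. They show the first 25 transcribed bases from RefSeq (GRCh38.p14, the assembly of hg38) in genes with a 5′ UTR window at or within a few bases of that start. RPLP1, RPLP2 and RPL4 were chosen from the ribosomal protein genes among the windows with most reads, and RPL32, another of these, is not printed. The others were taken from windows with at least 10 input reads. Of these, HMGN2 and H2AC20 are among the most enriched in the cytoplasmic arsenic list. TUBA1B is so for CAPRIN and KHSRP for G3BP1. Capitals mark the longest run of C and T where it has 5 bases or more.
RPLP1 (chr15:69452818-69452842, plus strand): CCCCTTTCCTCagctgccgccaagg
RPLP2 (chr11:809967-809991, plus strand): CCTTTTCCTCCCTgtcgccaccgag
RPL4 (chr15:66504831-66504855, minus strand): aagcaCTTCCTTTTCCTgtggcagc
TUBA1B (chr12:49131371-49131395, minus strand): agtgcgttacttacctcgaCTCTTa
HMGN2 (chr1:26472440-26472464, plus strand): gaaatccggttctaaccggtccggg
H2AC20 (chr1:149886918-149886942, plus strand): aatcttattttgttgcgaggttctg
KHSRP (chr19:6424787-6424811, minus strand): agagtgctccgcggccgtgtggagc
In RPLP1 and RPLP2 the pyrimidine run opens the transcript, in RPL4 it begins a few bases in, and in HMGN2, H2AC20 and KHSRP the first 25 bases hold no run of 5. In RPL32 the longest run has 7 bases and stands at the end of the first 25, so the printed ribosomal protein starts do not stand for all.

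The 5′ UTR took the largest share of its list in the cytoplasm with arsenic. There, 1184 of 6773 SNRNP200 windows (17.5%, exact 95% binomial interval 16.6 to 18.4, counting error only here and below) lay in 5′ UTRs, against 207 of 4182 (4.95%, 4.31 to 5.65) in the untreated cytoplasm. In whole cells the share was 2215 of 117690 (1.88%, 1.81 to 1.96) with arsenic and 3391 of 182066 (1.86%, 1.80 to 1.93) untreated. CAPRIN had 687 of 15831 (4.34%, 4.03 to 4.67) and G3BP1 134 of 1254 (10.7%, 9.03 to 12.5), while the second G3BP1 set had 55 of 1988 (2.77%, 2.09 to 3.59). The shares of the cytoplasmic lists with and without arsenic, and those of CAPRIN and G3BP1, have intervals that do not overlap, whereas those of the whole cell lists do. Each share is that of 1 list, so no replicate spread stands behind it. The cytoplasmic lists also differ in input: with arsenic the counts match the whole cell input, and untreated they match no other list. How far this bears on the shares was not tested.

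**Figure D1:**
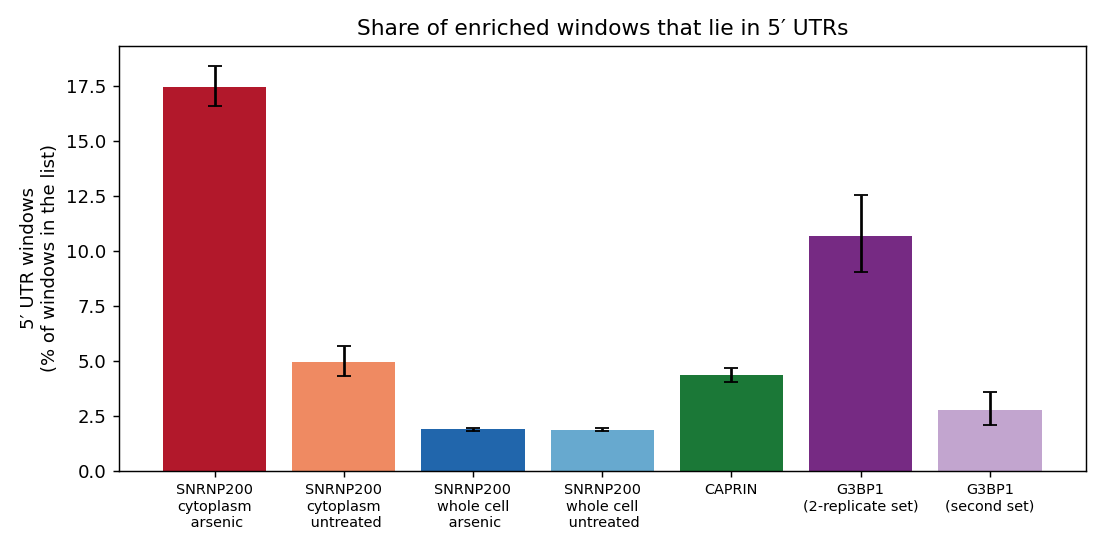
Share of the windows of each list that lie in 5′ UTRs, in percent (y axis), for the 6 experiments with G3BP1 as 2 sets (x axis). Bars are shares and error bars exact 95% binomial intervals. The cytoplasmic arsenic list stands highest at 17.5%, and both whole cell lists lie under 2%.

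The windows in 5′ UTRs were richer in G and C than the lists as wholes. The median GC fraction of 5′ UTR windows was 0.706 in the cytoplasm with arsenic, 0.582 in the untreated cytoplasm, 0.552 in whole cells with arsenic, 0.549 in untreated whole cells, 0.722 for CAPRIN and 0.807 for G3BP1, against 0.458 to 0.561 for all windows of these lists. The second G3BP1 set had a median of 0.617. With both lists weighted to the same mix of GC classes, the 5′ UTR share of the cytoplasmic SNRNP200 windows was 12.8% with arsenic and 7.77% untreated, a difference of 5.02 percentage points where the unweighted one was 12.5. The part of GC in the difference was not tested further. The GC-weighted share was 5.26% for CAPRIN and 9.54% for G3BP1.

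The median enrichment of 5′ UTR windows was below that of the whole list in every experiment, a difference given without a test. The authors' log2 enrichment compares IP with input against other windows of like GC, and its median over 5′ UTR windows was 3.66 in the cytoplasm with arsenic, 2.46 in the untreated cytoplasm, 3.29 in whole cells with arsenic, 3.07 in untreated whole cells, 3.07 for CAPRIN and 3.95 for G3BP1. The medians over all windows of the same lists were 3.97, 3.01, 3.60, 3.46, 3.71 and 4.22. The median gap between the replicates of a 5′ UTR window was 0.90 in the cytoplasm with arsenic and 0.43 to 0.79 in the other lists. The reads behind these values were few: the median 5′ UTR window had 24 to 55 IP reads, and its input ranged from 11 reads in the cytoplasm with arsenic to 2 for CAPRIN and G3BP1. No input read was counted in 215 of the 687 CAPRIN windows (31.3%) and in 29 of the 134 G3BP1 windows (21.6%), where the enrichment rests on the IP reads and the authors' model.

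Where the windows lay within the 5′ UTR differed between cytoplasm and whole cells. The start of each window was measured from the nearest RefSeq transcript start of its gene, which could be done for 1008, 166, 1894, 2874, 573 and 105 windows of the 6 lists in the order above and for 46 of the second G3BP1 set. With arsenic, 448 of 1008 cytoplasmic windows (44.4%) began within 50 bases of a start and 42 (4.17%) over 1000 bases after it, against 307 of 1894 (16.2%) and 582 (30.7%) in whole cells. Untreated, 38 of 166 cytoplasmic windows (22.9%) began within 50 bases and 24 (14.5%) over 1000 bases after a start, against 547 of 2874 (19.0%) and 941 (32.7%) in whole cells. CAPRIN windows began within 50 bases in 271 of 573 cases (47.3%) and G3BP1 windows in 35 of 105 (33.3%), while 33 of 46 (71.7%) did so in the second G3BP1 set. A distance over 1000 bases runs along the genome, across introns.

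**Figure D2:**
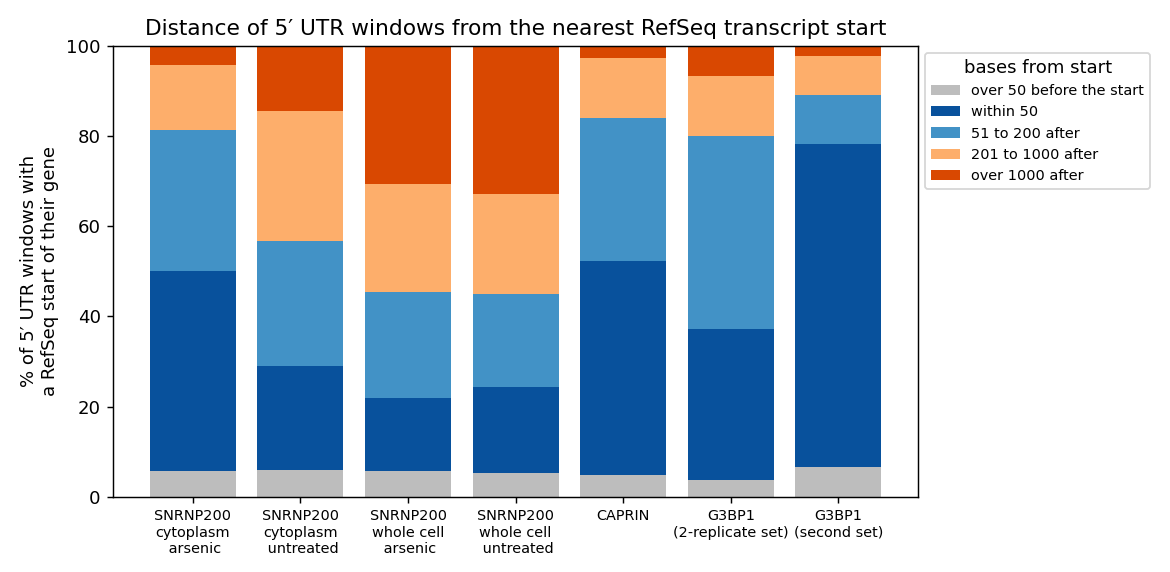
Distance along the genome from the nearest RefSeq transcript start of the gene to the first base of each 5′ UTR window, in 5 classes of bases (colours), as percent of the windows with such a start (y axis) in each list (x axis). Windows over 1000 bases after a start make up 4.17% and 14.5% of the cytoplasmic lists with arsenic and untreated, and 30.7% and 32.7% of the whole cell lists with arsenic and untreated.

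The neighbours of the windows differed in the same lists. In the cytoplasm 226 of 1184 5′ UTR windows with arsenic (19.1%) and 40 of 207 untreated (19.3%) were also annotated as intron or splice site in another transcript, against 1175 of 2215 with arsenic (53.0%) and 1599 of 3391 untreated (47.2%) in whole cells. The share was 21.1% for CAPRIN and 20.9% for G3BP1. An enriched intron window at the 5′ splice site followed directly after 1 of 1184 and 0 of 207 cytoplasmic windows with arsenic and untreated, against 375 (16.9%) and 503 (14.8%) whole cell windows with arsenic and untreated. It followed after 2 of 687 windows for CAPRIN and after 1 of 134 for G3BP1. An enriched 3′ splice site window directly before the 5′ UTR window was found for none in the cytoplasmic, CAPRIN and G3BP1 lists, and for 156 and 286 whole cell windows with arsenic and untreated. For comparison, 31.3% of whole cell coding windows with arsenic and 29.5% untreated had a 5′ splice site neighbour. No coding, start codon or 3′ UTR window of the cytoplasmic lists had one, so this contrast is not particular to 5′ UTR windows. Of 3′ UTR windows, 8.37% and 7.47% in the cytoplasm with arsenic and untreated were also intron or splice site. In whole cells 57.6% and 47.9% were. Coding windows did not show this split (10.5% and 8.01% in the cytoplasm, 6.97% and 6.81% in whole cells), nor did start codon windows. These shares are descriptions of single lists, without a test. A start codon window directly downstream was listed for 113 cytoplasmic windows with arsenic (9.54%), 5 untreated (2.42%), 188 (8.49%) and 406 (12%) whole cell windows with arsenic and untreated, 100 CAPRIN windows (14.6%) and 4 G3BP1 windows (2.99%).

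**Figure D3:**
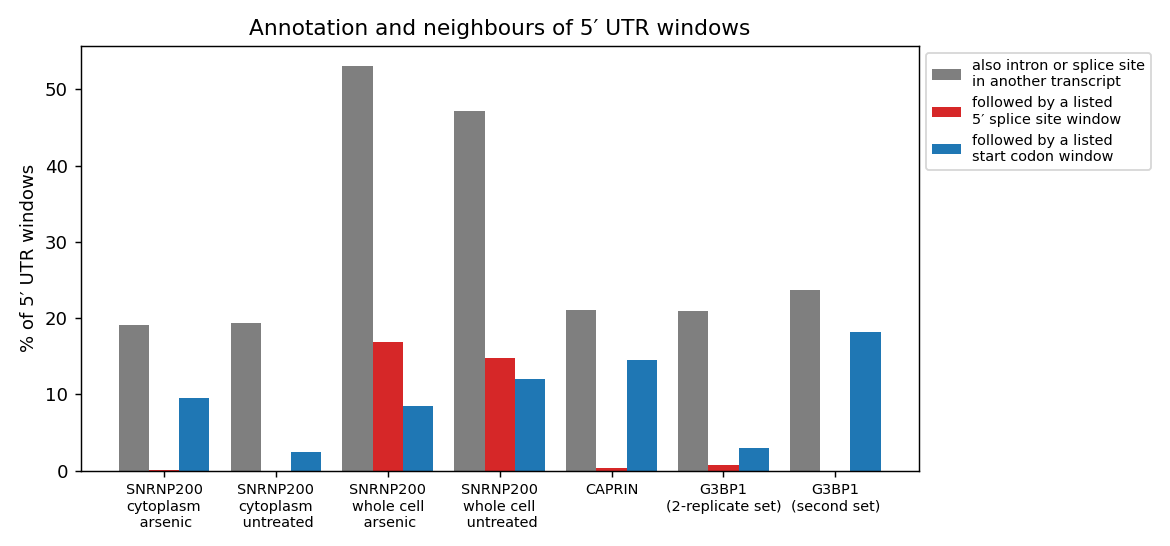
Percent of 5′ UTR windows (y axis) in each list (x axis) that are also intron or splice site in another transcript (grey), that are followed directly by an enriched 5′ splice site window (red), or by an enriched start codon window (blue). The red bars stay under 1% in the cytoplasmic, CAPRIN and G3BP1 lists and reach 16.9% and 14.8% in whole cells with arsenic and untreated.

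Single genes show how the lists divide. RACK1, a scaffold protein of the small ribosomal subunit, had a window that begins 10 bases before its RefSeq start in the cytoplasm with arsenic (log2 4.17 and 5.79 in the 2 replicates), in the untreated cytoplasm (1.5 and 2.17) and with CAPRIN (4.26 and 4.64), while its whole cell 5′ UTR windows lay 595 to 5583 bases after the start. EEF1A1, which carries aminoacyl-tRNAs to the ribosome, had its start window only in the CAPRIN list (3.10 and 3.79), and its whole cell windows with arsenic lay 92 to 915 bases after the start, the farthest of which was also listed in the cytoplasm with arsenic (3.11 and 3.88). RPL34 had the same start window in 5 lists, at 4.39 and 4.63 in the cytoplasm with arsenic, 1.75 and 1.87 in the untreated cytoplasm, 1.46 and 3.14 in whole cells with arsenic, 2.48 and 2.69 in untreated whole cells, and 2.19 and 3.17 with CAPRIN. RPL35A had its start window in the 4 SNRNP200 lists, and the window 55 bases after the start, next to an enriched 5′ splice site window, only in whole cells, at 3.21 and 5.09 with arsenic and at 3.89 and 3.94 untreated.

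Some genes had nothing but 5′ UTR windows. These were 236 of 828 genes with a 5′ UTR window (28.5%) and 52 of 148 (35.1%) in the cytoplasm with arsenic and untreated, against 41 of 1298 (3.16%) and 43 of 1962 (2.19%) in whole cells with arsenic and untreated. They were 125 of 608 for CAPRIN (20.6%) and 69 of 112 for G3BP1 (61.6%). Windows of several genes count here as a gene of their own. The lists differ in length, and the part of length in these shares was not tested.

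Ribosomal protein mRNAs were listed through their 5′ UTRs more often than genes at large. Of the 83 cytosolic ribosomal protein genes with any window, 68 had a 5′ UTR window in some list. In the cytoplasm with arsenic 50 of 72 listed ribosomal protein genes (69.4%) had one, against 845 of 2472 genes of all kinds (34.2%). The counts were 8 of 22 in the untreated cytoplasm (36.4%, all genes 8.25%), 42 of 81 in whole cells with arsenic (51.9%, all genes 16.2%), 48 of 83 in untreated whole cells (57.8%, all genes 22.1%), 45 of 72 for CAPRIN (62.5%, all genes 14.1%) and 7 of 22 for G3BP1 (31.8%, all genes 14.3%). These are counts of genes that share a list, given without a test.

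RPLP1 and RPLP2, the acidic stalk proteins of the large subunit, had start windows with most reads in the cytoplasm with arsenic. The RPLP1 window, which begins 4 bases before the start printed above, held 2278 IP and 811 input reads in the cytoplasm with arsenic (log2 3.51 and 3.91), 352 IP reads with CAPRIN (2.45 and 3.06) and 126 with G3BP1 (2.73 and 3.96). RPLP2 had 643 IP and 400 input reads in the cytoplasm with arsenic (2.28 and 2.94) and 190 IP reads with CAPRIN (1.03 and 1.60). RPL4 had 366 IP reads at its start in the cytoplasm with arsenic (3.06 and 5.23), 682 in the untreated cytoplasm (2.64 and 2.65) and 66 with CAPRIN (3.55 and 4.23), and no such window in whole cells. RPS2, at the mRNA entry side of the small subunit, had 613 IP reads in the cytoplasm with arsenic (4.17 and 5.25), 1041 in whole cells with arsenic (2.29 and 3.01), 1872 in untreated whole cells (3.20 and 3.61) and 142 with CAPRIN (2.85 and 3.12).

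A TOP-like start was defined as C at the first base followed by 4 bases that are each C or T, read on the transcript strand at the first base only. Of all 35116 RefSeq starts, 4.07% met it. Among the starts with a 5′ UTR window within 50 bases it was met by 66 of 440 (15%) in the cytoplasm with arsenic, 9 of 37 (24.3%) in the untreated cytoplasm, 29 of 303 (9.57%) in whole cells with arsenic, 47 of 539 (8.72%) in untreated whole cells, 52 of 264 (19.7%) for CAPRIN and 6 of 35 (17.1%) for G3BP1. Over the starts of all genes with any window in these lists the shares were 7.94%, 6.32%, 5.42%, 5.43%, 6.37% and 7.60%. Ribosomal protein genes supplied 21 of the 66 TOP-like starts in the cytoplasm with arsenic and 22 of the 52 of CAPRIN. Without them 45 of 407 (11.1%) and 30 of 234 (12.8%) starts met the definition. The letters at a start do not show what binds there.

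Other mRNAs of the TOP class gave 8 of 15 listed genes with a 5′ UTR window in the cytoplasm with arsenic, 4 of 11 in the untreated cytoplasm, 9 of 17 and 11 of 17 in whole cells with arsenic and untreated, 10 of 17 for CAPRIN and 1 of 5 for G3BP1. The last is PABPC1, the cytoplasmic poly(A)-binding protein, which is known to bind the 5′ UTR of its own mRNA. Its window of low GC content (chr8:100721920-100722003, GC fraction 0.298) had the highest 5′ UTR enrichment of the cytoplasmic arsenic list, 4.74 and 9.44, against 1.76 and 2.04 in the untreated cytoplasm, and 4.09 and 4.46 with CAPRIN and 2.91 and 3.66 with G3BP1. The neighbouring PABPC1 window (chr8:100722004-100722088) showed 3.90 and 5.53 in the cytoplasm with arsenic, 2.75 and 3.07 in the untreated cytoplasm, 7.54 and 8.09 with CAPRIN and 7.37 and 8.27 with G3BP1. The neighbouring window stood above the one of low GC content without overlap with CAPRIN, with G3BP1 and in the untreated cytoplasm, while in the cytoplasm with arsenic the replicate ranges of the windows overlapped. The high CAPRIN and G3BP1 values stand on 4 and 2 input reads. In the second G3BP1 set the same neighbouring window had 54 IP and 13 input reads (lowest 2.86, highest 4.69).

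**Figure D4:**
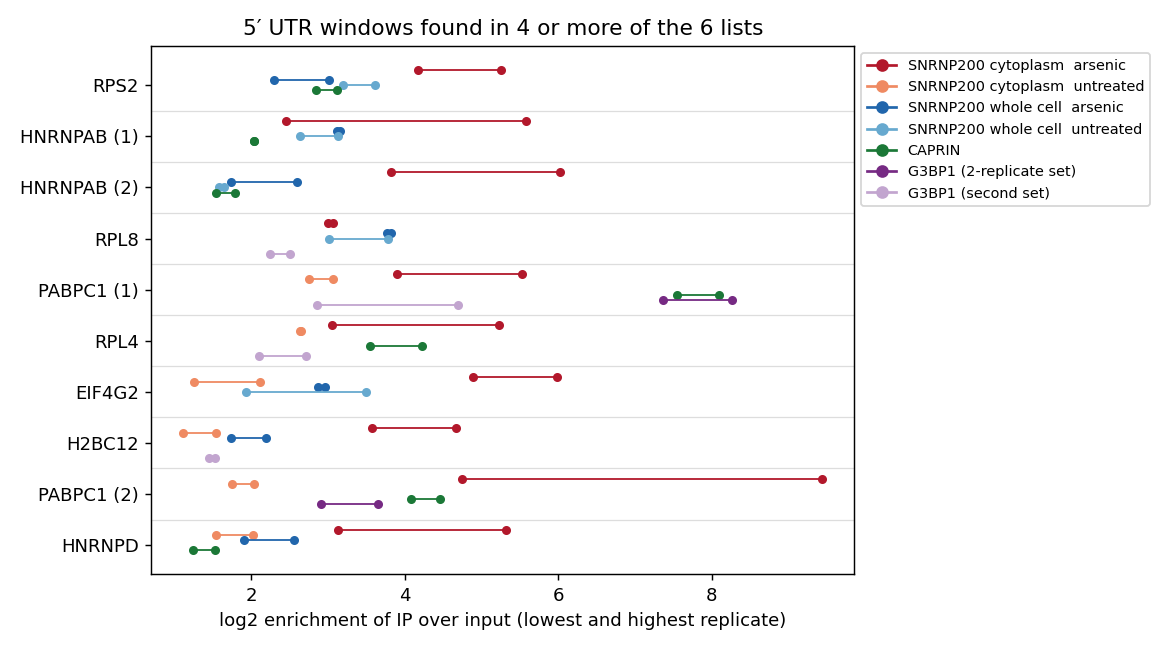
Log2 enrichment of IP over input (x axis) in the lowest and highest replicate (joined points) of the 10 5′ UTR windows with most IP reads among those in 4 or more lists (y axis), coloured by list. PABPC1 (1) is the window with CAPRIN and G3BP1 values over 7, and PABPC1 (2) the one of low GC content with 4.74 and 9.44 in the cytoplasm with arsenic.

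Of the 35 windows in 4 or more lists, 9 belonged to ribosomal protein genes and 12 of the 25 with a RefSeq start began within 50 bases of it. EIF4G2, an eIF4G relative that takes part in cap-independent initiation, had 4.89 and 5.99 in the cytoplasm with arsenic, 1.25 and 2.12 in the untreated cytoplasm, 2.87 and 2.96 in whole cells with arsenic and 1.93 and 3.50 in untreated whole cells. HNRNPD, which binds AU-rich elements, had 3.13 and 5.32 in the cytoplasm with arsenic, 1.54 and 2.02 untreated, 1.90 and 2.55 in whole cells with arsenic and 1.25 and 1.53 with CAPRIN. In both, the cytoplasmic arsenic values stood above those of the other lists without overlap. This was so in 14 of the 29 such windows listed in the cytoplasm with arsenic, the second G3BP1 set left aside, and not in the other 15, among them RPL4 and RPL8. The same count was not made for windows of other types. The cytoplasmic arsenic ranges lay apart and higher in 71.4% of all windows shared with the untreated cytoplasm. They did so in 60.1% of those shared with whole cells with arsenic. These shares compare pairs of lists, and the count of 14 compares all lists at once. Whether that count is particular to 5′ UTRs was not tested.

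The groups that follow are given by counts of listed genes with a 5′ UTR window, beside shares over all listed genes of 34.2% and 8.25% in the cytoplasm with arsenic and untreated, 16.2% and 22.1% in whole cells with arsenic and untreated, 14.1% for CAPRIN and 14.3% for G3BP1. Translation factors, some of which are also in the TOP class, had 16 of 38 in the cytoplasm with arsenic, 5 of 23 untreated, 23 of 63 and 25 of 71 in whole cells with arsenic and untreated, 13 of 49 for CAPRIN and 4 of 12 for G3BP1. PABPC4 was found in all 6 lists, in windows that were not all the same. For replication-dependent histones the counts were 30 of 39 in the cytoplasm with arsenic (76.9%) and 4 of 13 untreated (30.8%), 3 of 10 and 7 of 20 in whole cells with arsenic and untreated, 17 of 48 for CAPRIN and 0 of 6 for G3BP1. The median log2 enrichment of histone 5′ UTR windows was 4.69 in the cytoplasm with arsenic, above the 3.66 of all its 5′ UTR windows, and 1.41 in the untreated cytoplasm, below its 2.46. Histone genes have near-identical copies, so the assignment of reads to a copy is uncertain. H2AC20, printed above, had 5.45 and 7.24 in the cytoplasm with arsenic, on 88 IP and 16 input reads.

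Genes of nuclear-encoded oxidative phosphorylation had 5′ UTR windows in 24 of 53 cases in the cytoplasm with arsenic (45.3%), 2 of 7 untreated, 5 of 75 (6.67%) and 13 of 87 (14.9%) in whole cells with arsenic and untreated, 12 of 61 for CAPRIN and 2 of 10 for G3BP1. The corresponding counts for mitochondrial ribosomal proteins were 8 of 24, 0 of 8, 7 of 71, 13 of 76, 6 of 47 and 0 of 2, and for the proteasome 9 of 23, 1 of 7, 6 of 41, 7 of 42, 8 of 33 and 0 of 1. Spliceosome proteins, the partners of SNRNP200, gave 15 of 27 in the cytoplasm with arsenic (55.6%), among them PRPF8, SNRPB and U2AF2, 1 of 16 untreated (SF3B3), 12 of 56 and 19 of 58 in whole cells with arsenic and untreated, 8 of 45 for CAPRIN and 0 of 3 for G3BP1. SR and hnRNP proteins gave 16 of 29, 2 of 29, 15 of 37, 19 of 40, 12 of 37 and 3 of 20, the CCT chaperonin 3 of 8, 0 of 5, 2 of 8, 2 of 8, 4 of 8 and 0 of 2, and mitosis genes 3 of 12, 0 of 9, 7 of 22, 8 of 22, 4 of 20 and 0 of 4. Beside the shares over all genes given above, the mitochondrial ribosomal proteins (33.3%) and the proteasome (39.1%) were near the 34.2% of the cytoplasm with arsenic, and no group was tested.

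Stress-induced genes had 5′ UTR windows in 2 of 10 listed genes in the cytoplasm with arsenic (HSPA5 and HSPH1), 2 of 11 in the untreated cytoplasm (JUN and HSPA1B), 12 of 18 in whole cells with arsenic (66.7%, all genes 16.2%), 5 of 15 in untreated whole cells (33.3%, all genes 22.1%), 2 of 14 for CAPRIN and 0 of 3 for G3BP1. Genes of the whole cell arsenic list that lacked a 5′ UTR window in the untreated one included the stress transcription factor ATF3, with 145 and 445 IP reads in its 2 windows (log2 2.23 and 2.39, and 2.91 and 3.75), and the metallothioneins MT1X (3.07 and 4.2) and MT2A (3.41 and 3.55), which bind heavy metals. The same held for the chaperone HSP90AA1 (1.72 and 1.84) and for GCLM (1.78 and 3.99), the modifier subunit of the enzyme that begins glutathione synthesis. HSPA8, the constitutive HSP70, had windows in both lists. An enriched window is scored against input, and the labels and lists give no RNA level, so more RNA and more binding were not told apart here.

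The AP-1 transcription factor JUN had no window of any type in the cytoplasm with arsenic, against 7 5′ UTR windows in the untreated cytoplasm, with 2048 IP and 264 input reads in sum and log2 means up to 3.53. The JUN window with most reads (chr1:58783853-58783950) had 3.14 and 3.92 in the untreated cytoplasm, and was also listed in whole cells with arsenic, at 1.40 and 2.59. The inducible chaperone HSPA1B likewise had 2 windows in the untreated cytoplasm alone, at 1.38 and 1.78 and at 1.46 and 1.56. Of the mRNAs with stress-regulated upstream reading frames, 2 of 3 listed genes had a 5′ UTR window in the cytoplasm with arsenic, 1 of 3 untreated, 2 of 8 and 3 of 8 in whole cells with arsenic and untreated, 1 of 3 for CAPRIN and none was listed for G3BP1. ATF4 is the best known of them. Its start window had 2.67 and 3.36 in the cytoplasm with arsenic and 1.59 and 1.59 untreated, and its whole cell windows ran from 98 to 687 bases after the start, the last with 4.94 and 5.64 with arsenic and 4.42 and 4.73 untreated. FTH1, ferritin heavy chain, whose 5′ UTR holds the iron-responsive element, was the only one of 3 listed mRNAs with such an element that had a 5′ UTR window, in the cytoplasm with arsenic and in both whole cell lists.

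mRNAs of stress granule proteins had 5′ UTR windows in 2 of 12 listed genes in the cytoplasm with arsenic, 1 of 11 untreated, 8 of 19 and 9 of 19 in whole cells with arsenic and untreated, 3 of 16 for CAPRIN and 0 of 7 for G3BP1. Of the immunoprecipitated proteins' own mRNAs, SNRNP200 had a window in the cytoplasm with arsenic (2.96 and 3.21, 20 IP reads) and with CAPRIN (3.37 and 4.29, 13 IP and no input reads), and G3BP1 mRNA had windows in both whole cell lists.

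Several genes had many 5′ UTR windows, some of them in touching runs. SLIT2, a secreted axon guidance ligand, had most 5′ UTR windows of any gene in both cytoplasmic lists, 15 of its 17 windows with arsenic and 10 of 17 untreated. ROBO1, the receptor of SLIT2, had 7 in the cytoplasm with arsenic, 6 of them touching over 599 bases. The glutamine transporter SLC1A5 had 7 touching windows over 629 bases (chr19:46787966-46788594) with log2 means of 3.63 to 6.44 in the cytoplasm with arsenic, and no window of any type in the untreated cytoplasm. In whole cells the genes with 10 or more in either list included EIF5, which stimulates GTP hydrolysis by eIF2, with 12 windows with arsenic and 11 untreated, the helicase DDX5 with 9 and 10, PTRH2 with 10 and 10, the import receptor TNPO2 with 8 and 13, GOLGA8B with 3 and 11 and CCDC14 with 3 and 10. EIF5 had 67 and 60 windows of any type and DDX5 55 and 59, with arsenic and untreated. CAPRIN reached 4 windows in GNAS, and G3BP1 reached 5 touching windows over 448 bases in SKI, all of the G3BP1 windows of that gene.

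Beside PABPC1, the CAPRIN and G3BP1 windows with most reads, or the highest enrichment on at least 10 input reads, included genes of several kinds. RPL30, a ribosomal protein gene, had 219 IP reads with CAPRIN (3.90 and 4.26), and 388 with G3BP1 (5.75 and 7.73) in a window that ends 1 base later. NDUFS7, a subunit of respiratory complex I, had the G3BP1 window with most reads, 2687 IP and 13 input reads (9.03 and 9.91), which begins 380 bases before the RefSeq start. The same NDUFS7 window had 240 IP and 72 input reads in the second G3BP1 set (lowest 1.63, highest 3.56). ZNF275, a zinc finger gene, had 1310 IP and 30 input reads with CAPRIN (4.82 and 6.22) and 734 IP and 2 input reads with G3BP1 (8.53 and 9.68). CKB, the brain creatine kinase, had 958 IP and 80 input reads with CAPRIN (3.63 and 4.01). TUBA1B, an alpha tubulin, had 3.74 and 4.64 with CAPRIN in the window over its start and 2.93 and 3.54 in the cytoplasm with arsenic. KHSRP, an RNA-binding protein of AU-rich decay, had 2.37 and 4.25 with G3BP1 and 2.59 and 3.91 in the cytoplasm with arsenic. The median over all G3BP1 5′ UTR windows was 3.95.

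The whole cell windows with most reads, or the highest enrichment on at least 10 input reads, lay both near the transcript start and away from it. TPI1, triosephosphate isomerase, had 5.08 and 5.57 with arsenic and 5.77 and 6.04 untreated, 663 bases after its start. DDX5 had 4.97 and 6.12 with arsenic and 4.31 and 6.93 untreated, 1001 bases after its start. RAN, the GTPase of nuclear transport, had, 61 bases after its start, 1204 IP reads with arsenic (4.57 and 5.31) and 1602 untreated (4.69 and 5.39). HNRNPC had, 47 bases after its start, the window with most reads with arsenic, 2535 IP reads (3.47 and 5.43), and 1353 untreated (3.26 and 3.42). RPL32 had 1288 IP reads in its start window with arsenic (1.66 and 2.52) and 1165 untreated (1.43 and 1.65). The replicate ranges with arsenic and untreated overlapped in DDX5 and RAN, and lay apart in TPI1, where arsenic was lower, and in HNRNPC and RPL32, where it was higher.

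Differences were tested in windows shared by the lists compared, with limma on the 2 replicate values per list, over windows of every type and with p adjusted over all of them. The authors scaled every list separately, so that a difference may hold a shift of the whole list, and a window enters only if both lists called it enriched. With 2 values against 2, an exact permutation test cannot go below 0.333. Beside each count of 5′ UTR windows whose replicate ranges do not overlap stands the percentage of all shared windows that do the same.

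With arsenic in the cytoplasm, 66 of 69 shared 5′ UTR windows had a higher mean than untreated. Only the arsenic list has input counts that match the whole cell input, and the part of this was not tested. The median difference of arsenic minus untreated was 2.35, with quartiles of 1.33 and 2.84, where that of all 1065 shared windows was 2.00. Replicate ranges lay apart and higher with arsenic in 56 of 69 5′ UTR windows (81.2%, against 71.4% of all shared windows) and lower in 1 (1.45%, against 0.751%). By limma none of the 69 passed adjusted p under 0.05, nor did any of the 1065 (0%), although the unadjusted p was under 0.05 in 24 of the 69 and in 312 of the 1065, and the lowest adjusted p was 0.113. With each list centred on its median over all shared windows, 3 of the 69 and 26 of the 1065 had an unadjusted p under 0.05. When the variance was allowed to follow the level (limma-trend), 18 of 69 were called, all higher, and 127 of all 1065 (11.9%). Among windows with q under 0.05 in both lists, 1 of 3 was called, and 20 of all 39 (51.3%). PABPC1 differed most, by 5.19 ± 1.38 (SE), in the window of low GC content. H2AW, a histone H2A gene, had 4.84 and 7.39 with arsenic and 1.31 and 1.32 untreated, SEPHS2, a selenophosphate synthetase, had 4.34 and 8.48 with arsenic and 2.30 and 2.39 untreated, and CHTOP, an mRNA export factor, had 4.46 and 6.57 with arsenic and 1.82 and 1.82 untreated. The window that lay lower was in CHPF2, at 3.08 and 4.08 with arsenic and 4.25 and 4.42 untreated.

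The sets of windows overlapped little. The 69 shared windows are 5.83% of the 5′ UTR windows of the cytoplasmic arsenic list and 33.3% of the untreated one, and the 89 shared genes are 10.5% and 59.3%. Of the 756 genes with 5′ UTR windows only with arsenic, 329 had a window of another type in the untreated cytoplasm. Those with most windows were SLC1A5, the phosphatase PTP4A2 with 6 windows, TOP2B with 5 (shared with the overlapping MIR4442), the RNA demethylase ALKBH5 with 5 and the NEDD8-conjugating enzyme UBE2M with 5. Untreated only were JUN, RBBP6 with 4 windows, SPEN with 4 and the kinase STK11 with 3. In IP reads alone, without any input and with each list centred on its shared windows, the 69 windows had a median difference of 0.19, an alternative added after the data were seen. Centred with the input kept, the median difference was 0.36.

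In whole cells the lists shared 1533 5′ UTR windows, 69.2% of those with arsenic and 45.2% of those untreated. The median difference of arsenic minus untreated was 0.19, with quartiles of -0.34 and 0.75, where that of all 91143 shared windows was -0.01. Replicate ranges lay apart and higher with arsenic in 335 (21.9%, against 15.6% of all shared windows) and lower in 170 (11.1%, against 16.9%). By limma none of the 1533 passed adjusted p under 0.05, nor did any of the 91143 (0%), with 59 of the 1533 and 4076 of the 91143 at an unadjusted p under 0.05. CHTF8 differed most upward, at 6.09 and 6.50 with arsenic and 3.07 and 3.48 untreated. LDHB, a lactate dehydrogenase subunit, had 4.57 and 5.56 with arsenic and 1.82 and 2.41 untreated. MGAT4B, a glycosyltransferase, lay lower, at 2.34 and 2.44 with arsenic and 5.32 and 5.36 untreated. The higher side of each stood on 0 input reads.

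**Figure D5:**
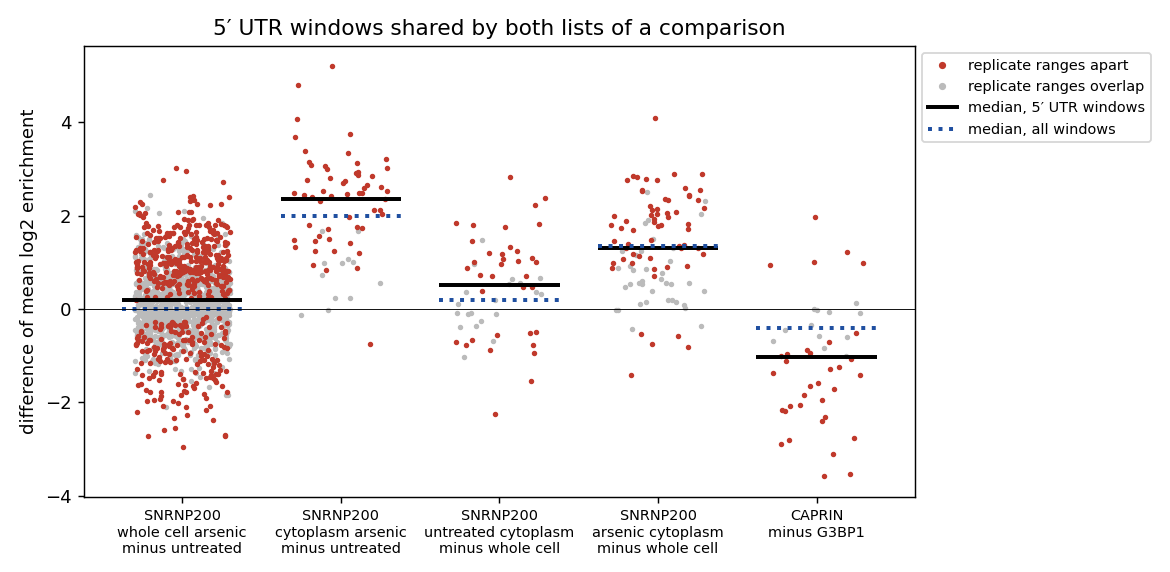
Difference of mean log2 enrichment (y axis) in each 5′ UTR window shared by both lists of a comparison (points), for the 5 comparisons (x axis). Red points are windows whose replicate ranges do not overlap, the black line is the median of the 5′ UTR windows and the dotted blue line that of all shared windows. The medians of 5′ UTR and all windows are 2.35 and 2.00 for arsenic in the cytoplasm, and -1.03 and -0.41 for CAPRIN minus G3BP1.

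Between the fractions without arsenic, 56 5′ UTR windows were shared, 27.1% of the cytoplasmic and 1.65% of the whole cell ones. The median difference of cytoplasm minus whole cell was 0.51, against 0.19 for all 651 shared windows, and it was -0.18 in the 16 windows with at least 20 IP and 10 input reads in both lists. Replicate ranges lay apart and higher in the cytoplasm in 25 (44.6%, against 29.8% of all shared windows) and lower in 11 (19.6%, against 21.2%). By limma none of the 56 passed adjusted p under 0.05, nor did any of the 651 (0%), with 10 of the 56 and 114 of the 651 at an unadjusted p under 0.05. RBBP6, a ubiquitin ligase that takes part in mRNA 3′ processing, had 4.08 and 4.87 in the cytoplasm and 1.37 and 1.95 in whole cells. SLIT2 had 3.10 and 4.4 in the cytoplasm and 1.48 and 2.34 in whole cells. STK11 had 2.67 and 4.08 in the cytoplasm and 5.43 and 5.80 in whole cells, and SFPQ, a splicing factor, 1.58 and 1.71 in the cytoplasm and 2.44 and 2.74 in whole cells. The higher side stood on 0 input reads in RBBP6 and STK11.

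Between the fractions with arsenic, 100 5′ UTR windows were shared, 8.45% of the cytoplasmic and 4.51% of the whole cell ones, and 91 had a higher mean in the cytoplasm. The median difference was 1.31, against 1.36 for all 882 shared windows. Replicate ranges lay apart and higher in the cytoplasm in 57 (57.0%, against 60.1% of all shared windows) and lower in 5 (5%, against 1.93%). By limma none of the 100 passed adjusted p under 0.05, nor did any of the 882 (0%), with 22 of the 100 and 166 of the 882 at an unadjusted p under 0.05. The input counts are those that match, so the level rests on the IP reads and on the scale of each list: the HNRNPAB window at chr5:178204609-178204684 had 475 IP and 48 input reads in the cytoplasm and 440 IP and 48 input reads in whole cells, with log2 values of 3.83 and 6.03 in the cytoplasm and 1.74 and 2.60 in whole cells. SLC1A5 differed most, with 4.71 and 8.17 in the cytoplasm and 1.89 and 2.80 in whole cells. Lower in the cytoplasm were windows of the cold-shock protein gene RBM3, at 2.97 and 3.44 against 4.56 and 4.67 in whole cells, of the replacement histone H3-3B, of RPL8, with 2 windows, and of RPL6. Between these lists RBM3 had 16 and 345 IP reads, in the cytoplasm and in whole cells, on 25 input reads each. With IP reads alone and each list centred, the median difference was -0.01, and centred with the input kept it was -0.05.

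Only 9 5′ UTR windows were in all 4 SNRNP200 lists, in EIF4G2, CHTOP, RCC2, PABPC4, RPL35A, ROBO1, RPL34, H2AZ1 and BRD2. In each of them the arsenic difference was larger in the cytoplasm than in whole cells, by a median of 2.88, where the median over all 97 windows of any type shared by these lists was 2.40. By limma's interaction term none passed adjusted p under 0.05, nor did any of the 97 (0%), with 3 of the 9 and 22 of the 97 at an unadjusted p under 0.05.

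CAPRIN and G3BP1 shared 46 5′ UTR windows, 6.70% of the CAPRIN and 34.3% of the G3BP1 ones. The difference of CAPRIN minus G3BP1 was negative in most: the median was -1.03, against -0.41 for all 551 shared windows, and 6 of 46 were higher with CAPRIN. Replicate ranges lay apart and higher with CAPRIN in 5 (10.9%, against 25.6% of all shared windows) and lower in 29 (63.0%, against 41.2%). By limma 13 of the 46 passed adjusted p under 0.05, all lower with CAPRIN, where 138 of all 551 did (25%). With each list centred on its median, 9 were called, 8 lower and 1 higher, and 121 of all 551 (22%).

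The called 5′ UTR windows with the largest differences were in ZNF275 (difference -3.58 ± 0.67, adjusted p = 0.0101 by limma), in the zinc finger gene ZNF768 (-3.54 ± 0.64), in PPP4C, a protein phosphatase subunit (-3.10 ± 0.55), in EPN1, an endocytic adaptor (-2.90 ± 0.56), and in the kinase CDC42BPB (-2.81 ± 0.51). ZNF768 had 1.06 and 1.11 with CAPRIN and 3.81 and 5.43 with G3BP1, and PPP4C had 1.90 and 2.23 with CAPRIN and 4.75 and 5.58 with G3BP1. HDGF, GLUL, HNRNPF, USP1 and PSIP1 followed, with differences of -2.76 to -2.06. Their G3BP1 values rest on few input reads, from 0 in CDC42BPB and USP1 to 7 in PPP4C. Higher with CAPRIN, without passing the test, were STARD7 (5.17 and 6.11 with CAPRIN, 2.85 and 4.50 with G3BP1), RPS12 (4.98 and 4.98 with CAPRIN, 3.67 and 3.83 with G3BP1) and the PABPC1 window of low GC content. Against the second G3BP1 set the direction was the other: in 26 shared 5′ UTR windows the median difference of CAPRIN minus that set was 1.04, near the 0.96 of all 1267 shared windows. There 9 of the 26 were called, 8 of them higher with CAPRIN, and 446 of all 1267 (35.2%).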

How the data were processed

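The 24 libraries (6 experiments, 2 input and 2 IP libraries each) were grouped by the protein, fraction, treatment and library type of their labels. The protocol text names arsenic, and 1 antibody number, for all samples, so treatment was taken from the characteristics and the protein from the titles. Trimming used fastp 0.11.5, alignment used STAR 2.7.6, and the build was hg38, per the submitters' processing notes. The caller of the windows was not given in the sources used here. Lists as deposited carry no header, so each column was recognised by what it holds. The deposited input and IP read counts per window are raw counts summed over replicates. The deposited log2 enrichments, judged from their values since no header or label says so, compare IP with input against windows of like GC, and give the lowest, mean and highest replicate without replicate numbers. The deposited q values and p-values are per window, and the deposited GC content is a fraction. Library totals were not used here, so the depth is unknown. The 5′ UTR windows held 8422 (G3BP1) to 226889 (untreated whole cells) IP reads per list.

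Windows were matched to RefSeq starts (GRCh38.p14) by gene symbol, chromosome and strand. Differences were tested two-sided and unpaired with moderated statistics from limma 3.58.1 (R 4.3.3) over all windows shared by 2 lists, with Benjamini-Hochberg adjustment, and the script was tested on simulated data. The G3BP1 set with up to 2 replicates was used, and the second set as an alternative. Shares have exact Clopper-Pearson intervals. The named windows are, per list, the 5 highest log2 means with at least 10 input reads, the 5 with most IP reads and the 5 genes with most windows. Per comparison they are the 5 largest differences each way with ranges apart and up to 10 called windows, and further the 10 windows with most IP reads in 4 or more lists and the leading members of the gene lists. Other genes were chosen after their values were seen. The members and the 16 gene lists were chosen with earlier results of these data known. Sequences on chromosome 8 are not reported here.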

Additional observations from a re-analysis of the deposited data

Results flagged for a closer look

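In PABPC4 and RPL35A the replicate ranges lay apart in both fractions, higher with arsenic in the cytoplasm and lower with arsenic in whole cells. The PABPC4 window (chr1:39576604-39576696) had 3.04 and 5.94 with arsenic and 1.91 and 2.36 untreated in the cytoplasm, and 1.79 and 2.53 with arsenic and 2.68 and 2.69 untreated in whole cells. The difference of the arsenic differences was 2.88 ± 1.5 (SE), with an adjusted p of 0.193 by limma's interaction term. The RPL35A start window had 2.58 and 3.16 with arsenic and 1.37 and 1.88 untreated in the cytoplasm, and 1.87 and 1.92 with arsenic and 2.17 and 2.39 untreated in whole cells. Its difference was 1.64 ± 1.5, with an adjusted p of 0.340. Neither passed the test. All 1065 shared cytoplasmic windows had a median arsenic difference of 2.00, with 2.35 in PABPC4 and 1.25 in RPL35A. The median difference of the arsenic differences over all 97 windows was 2.40. In whole cells the arsenic difference was -0.53 in PABPC4 and -0.39 in RPL35A, where the median over all shared windows was -0.01. Beside the medians of all shared windows, PABPC4 lay above in the cytoplasm and below in whole cells, and RPL35A lay below in both. The part of the scale of each list was not tested.

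The second G3BP1 set, which is summarised over more replicates than the labels give, had 2.77% of its windows in 5′ UTRs. This is below the 10.7% of the G3BP1 windows used in the report.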

How the results depend on the processing

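No paired analysis was possible because the 2 replicate values of a window carry no replicate number. For the same reason leaving out a replicate meant leaving out the lower or the higher value of every window, which is not 1 library and shifts levels by its construction. It gave 0 to 47 called 5′ UTR windows for arsenic in the cytoplasm, 0 to 40 between fractions with arsenic, 1 to 20 for CAPRIN minus G3BP1, 0 to 8 for the interaction of arsenic and fraction, and 0 to 0 for the remaining comparisons. The median differences ranged from 1.11 to 3.17 for arsenic in the cytoplasm, 0.54 to 1.97 between fractions with arsenic, -0.0291 to 0.85 between fractions untreated, -0.30 to 0.66 for arsenic in whole cells, and -1.38 to -0.78 for CAPRIN minus G3BP1. In the settings with most calls, the medians of 5′ UTR and all shared windows were 3.17 and 2.93 for arsenic in the cytoplasm. They were 1.97 and 2.08 between fractions with arsenic, -1.38 and -0.78 for CAPRIN minus G3BP1, and 4.01 and 3.42 for the interaction. Windows of all types thus shifted, and the called counts are not read as particular to 5′ UTR windows.

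Called 5′ UTR windows for arsenic in the cytoplasm were 0 in the reported fit, 18 with a variance trend (127 of all 1065 windows) and 1 of 3 with q under 0.05 (20 of all 39). Where windows needed 20 IP and 10 input reads, 1 of 61 was called between fractions with arsenic (3 of all 553). For CAPRIN minus G3BP1 that read minimum left 1 of 6 (25 of all 77), and q under 0.05 left 6 of 17 (84 of all 295, 28.5%). The median difference between untreated fractions was -0.18 in windows with 20 IP and 10 input reads or more. Without input and with each list centred on its shared windows, it was 0.19 for arsenic in the cytoplasm and -0.0149 between fractions with arsenic. Centred with the input kept, it was 0.36 and -0.05. It was 1.04 against the second G3BP1 set.

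Differences of the 5′ UTR share are in percentage points. For arsenic in whole cells (0.0196 as reported) the difference was 0.128 with q under 0.05, 0.318 for windows with that read minimum, 0.455 at equal list length, -0.820 with 1 window per gene, 0.367 weighted by IP reads and -0.0358 with 5′ UTR anywhere in the annotation, so it has no stable direction. For arsenic in the cytoplasm (12.5) these settings gave 16.9, 8.47, 14.3 and 17.7, and the same mix of GC classes 5.02. Between untreated fractions (3.09) the difference was 6.68 with the read minimum, 3.97 at equal length, 1.28 with 1 window per gene and 6.85 weighted by IP reads. Between fractions with arsenic (15.6) it was 19.99 with q under 0.05, 19.8 with 1 window per gene, 19.9 weighted by IP reads and 10.3 with the same GC mix. For CAPRIN minus G3BP1 (-6.35) it was -1.73 with the read minimum, -9.17 at equal length, -3.17 weighted by IP reads, -4.29 with the same GC mix and 1.57 against the second G3BP1 set. Another 96 recomputed values stayed within the limits set for them. Among these, the 9 calls against the second G3BP1 set were 8 higher and 1 lower with CAPRIN, where all 13 reported ones were lower. The causes were not tested.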

Other observations

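Some values belong to no comparison of the report. In the second G3BP1 set, 10 of 45 listed replication-dependent histone genes had a 5′ UTR window, with a median log2 enrichment of 2.64, where the G3BP1 set of up to 2 replicates had 0 of 6. Ribosomal protein genes had one in 8 of 38 cases, and TOP-like letters stood at 5 of the 32 starts (15.6%) with a window within 50 bases. NPM1, a nucleolar chaperone, had 2 touching 5′ UTR windows in that set over 150 bases, with log2 means of 1.73 and 2.92.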
